A study of Mus musculus with 6 samples.

Results

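The eotaxins and the genes that mark eosinophils were examined in colon tissue of mice with chemical colitis. The 8 genes were taken by symbol from the 18477 genes of the deposited count table: the eotaxins Ccl11 and Ccl24, their receptor Ccr3, the cytokine Il5 and its receptor chain Il5ra, the granule protein genes Epx and Prg2, and the surface receptor Siglecf. All libraries came from male mice of the C57BL/6 strain, 6 to 8 weeks old, that drank 2% (w/v) dextran sulfate sodium (DSS), an agent that injures the colon epithelium, on days 8 to 14. The DSS group (n = 3) received phosphate buffer by gavage daily for 14 days, and the DSS+BV group (n = 3) received the gut bacterium *B. vulgatus* on the same days. The mice were chosen at random from larger groups, and 1 library was made from each. No library came from mice without DSS, so every level below is a level in DSS-treated colon. The comparison asks how gavage with the bacterium altered gene expression in the inflamed colon.

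Eosinophils are granulocytes that reside in the healthy gut and gather there in type 2 inflammation. They mature in bone marrow under interleukin-5 (IL-5), which binds a receptor made of IL-5Rα and a shared beta chain, and they enter tissue along eotaxins, chemokines that bind CCR3. Their granules hold eosinophil peroxidase and major basic protein, and mouse eosinophils carry Siglec-F on their surface.

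In these libraries Ccl11 carried most of the reads of the 8 genes and was lower in each DSS+BV mouse than in each DSS mouse, at a mean 2.66-fold below the DSS level. Il5ra was high in 2 DSS mice and low in the remaining 4 mice. Both differences passed the threshold with DESeq2 and not with edgeR's quasi-likelihood test. Ccl24, Ccr3, Il5 and Epx were removed by the filter before the test, and Prg2 and Siglecf, which were tested, had intervals that spanned no difference.

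Library totals lay between 15293276 and 17254343 expected counts, and 3 counts corresponded to 0.175 to 0.198 CPM (the count relative to the scaled library total). The edgeR test covered 14579 genes and called 13 lower (0.0892%) and 0 higher in DSS+BV (0.0%) at thresholds of 0.05 for the adjusted p-value and 1 for the absolute log2 fold change. Without adjustment, p-values under 0.05 were found for 1329 lower genes (9.12%) and 496 higher genes (3.4%), while DESeq2 called 281 lower (1.78%) and 46 higher (0.291%). Of the 8 genes, 4 passed the filter on low counts (Ccl11, Il5ra, Prg2 and Siglecf). None of the 4 was called by edgeR, 2 (Ccl11 and Il5ra) were below an unadjusted p-value of 0.05, and the same 2 were called by DESeq2. Mice of a group were separate animals, and their libraries differed by more than sampling noise.

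For the expression of eosinophil genes the factor GATA-1 is a known regulator, and its core motif GATAA was searched on both strands in the 300 bases around each gene start that RefSeq gives on build GRCm38.p6. Promoters were found for 5 of the 8 genes (Il5ra, Siglecf, Ccr3, Il5 and Epx). The motif was present in those of Il5ra, Ccr3 and Siglecf, and in 25.4% of all 32851 promoters. The matches upstream of the start in the genes of both eosinophil receptors that the results below describe are shown here with 12 bases on each side and the motif in capitals. The Il5ra match lay 73 to 69 bases upstream of the start on the minus strand (chr6:106749094-106749122), and the Ccr3 match 29 to 25 bases upstream on the plus strand (chr9:124021930-124021958). The Ccr3 start of that table lies inside the span that the RefSeq gene table gives for Ccr3, downstream of its first base, and no other Ccr3 start was searched. These are matches of letters, not measured binding sites.
Il5ra: gttggtagggcaGATAAatacctttttct
Ccr3: tatccatccataGATAActcaacagagag

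Ccl11 (Entrez gene 20292, chromosome 11, 82057832 to 82062955), which encodes eotaxin-1, had counts of 667, 980 and 1607 in DSS mice 1, 2 and 3, and of 349, 416 and 372 in DSS+BV mice 1, 2 and 3. Every DSS+BV mouse lay below every DSS mouse, and the DSS mice varied more among themselves than the DSS+BV mice. On the CPM scale the level was 39.9, 60.9 and 93.6 in the DSS mice (64.8 ± 27.0, SD, n = 3) and 23.0, 26.5 and 23.5 in the DSS+BV mice (24.3 ± 1.88, SD, n = 3). The log2 fold change, DSS+BV against DSS, was -1.41 (standard error 0.305, 95% confidence interval -2.14 to -0.68). With edgeR's quasi-likelihood test the unadjusted p was 0.0027 and the Benjamini-Hochberg adjusted p was 0.220, so the gene was not called. DESeq2 gave a log2 fold change of -1.39 with an adjusted p of 0.00402. Of all tested genes, 11.3% lay lower without overlap between the groups and 6.37% lay higher. With 1 mouse left out in turn the log2 fold change ranged from -1.67 to -1.05, the latter without DSS mouse 3, and edgeR's adjusted p from 0.134 to 0.870.

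**Figure D1:**
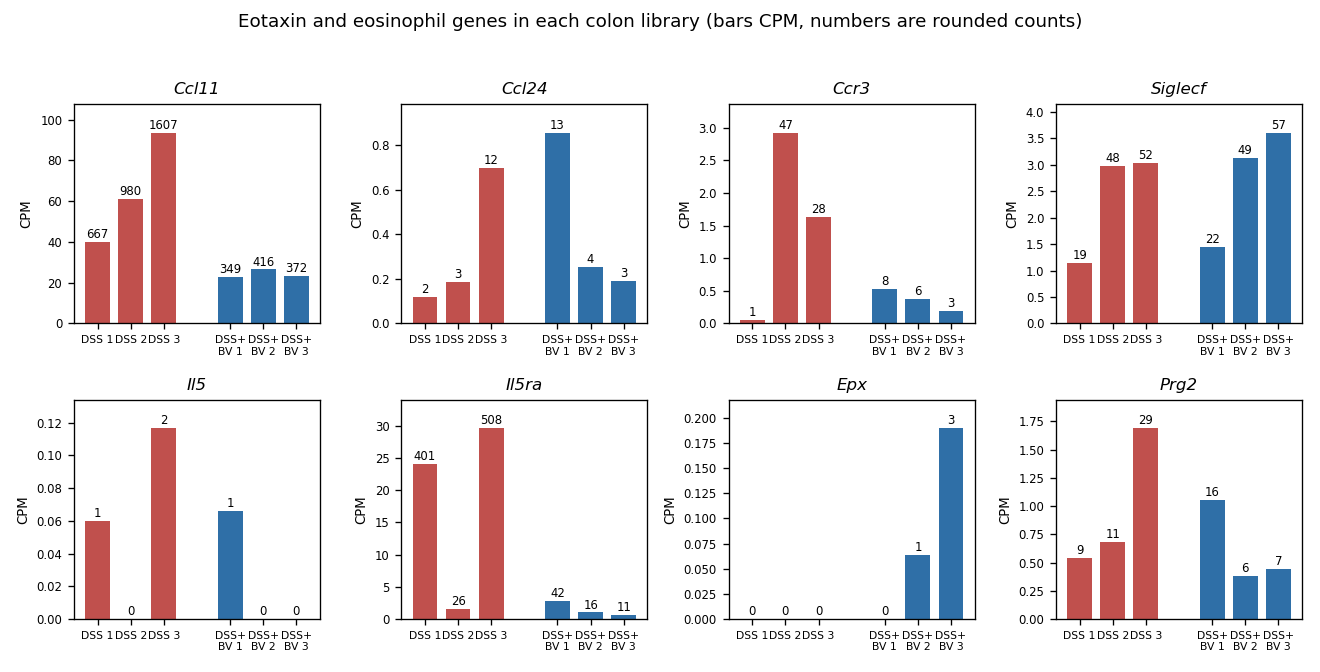
CPM of the 8 eotaxin and eosinophil genes in each of the 3 DSS and 3 DSS+BV libraries, on vertical axes that differ between panels. Ccl11 sat between 23.0 and 26.5 CPM in DSS+BV and between 39.9 and 93.6 CPM in DSS. The levels of the other 7 genes overlapped between the groups.

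Ccl11 lies in a cluster of CC chemokine genes, and 5 genes of that cluster were tested: Ccl2, Ccl7, Ccl11, Ccl12 and Ccl8. Ccl2, the monocyte attractant, starts at -22.25 kb from the start of Ccl11 and had a log2 fold change of -2.39 with CPM of 10.6, 27.2 and 21.0 in DSS and 3.50, 3.95 and 3.73 in DSS+BV. Ccl7 and Ccl8, which attract monocytes and eosinophils among other cells, had log2 fold changes of -1.19 and -1.16. In 4 of the 5 genes (all but Ccl12) each DSS+BV mouse lay below each DSS mouse, beside 11.3% of all tested genes. The neighbours of Ccl11 were named after their values had been seen. For Ccl12 the log2 fold change was 0.08, with a standard error of 0.553. None of the 5 was called by edgeR, whose adjusted p-values ran from 0.123 for Ccl2 to 0.964 for Ccl12, and DESeq2 called Ccl2 and Ccl11.

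In the gut wall, stromal cells are a known source of eotaxin-1, and 12 fibroblast genes were therefore set beside it. The summed level of the 12 genes was 4534, 4395 and 4342 CPM in the DSS mice and 2313, 1561 and 1611 CPM in the DSS+BV mice, lower in each DSS+BV mouse than in each DSS mouse, as Ccl11 was. All 12 had negative log2 fold changes with a median of -0.90. Of the 12, 6 lay lower without overlap between groups, beside 11.3% of all tested genes. EdgeR called 0, and 9 were below an unadjusted p of 0.05, beside 9.12% of all tested genes that were lower at that level. DESeq2 called 4 (Dcn, Col1a1, Col3a1 and Grem1). In bulk tissue, fewer cells of a type and less RNA per cell cannot be told apart. Per 1000 CPM of the fibroblast genes, Ccl11 stood at 8.81, 13.9 and 21.6 CPM in DSS against 9.95, 17.0 and 14.6 CPM in DSS+BV, and the groups overlapped. The means on that scale were 14.7 ± 6.42 and 13.8 ± 3.58 (SD, n = 3 each). Collagens hold much of that sum, and per 1000 CPM of the 9 other fibroblast genes Ccl11 stood at 37.2 ± 8.70 in DSS and 28.9 ± 7.40 in DSS+BV (SD, n = 3 each), again with overlap. Per 100 CPM of decorin (Dcn), a matrix proteoglycan, Ccl11 was 8.22 ± 1.62 in DSS and 7.14 ± 2.07 in DSS+BV (SD, n = 3 each), and per CPM of Pdgfra, a fibroblast receptor, 0.305 ± 0.107 and 0.168 ± 0.0468 (SD, n = 3 each). Both scales overlapped between the groups. The part of fibroblast content in the Ccl11 difference was not tested.

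**Figure D2:**
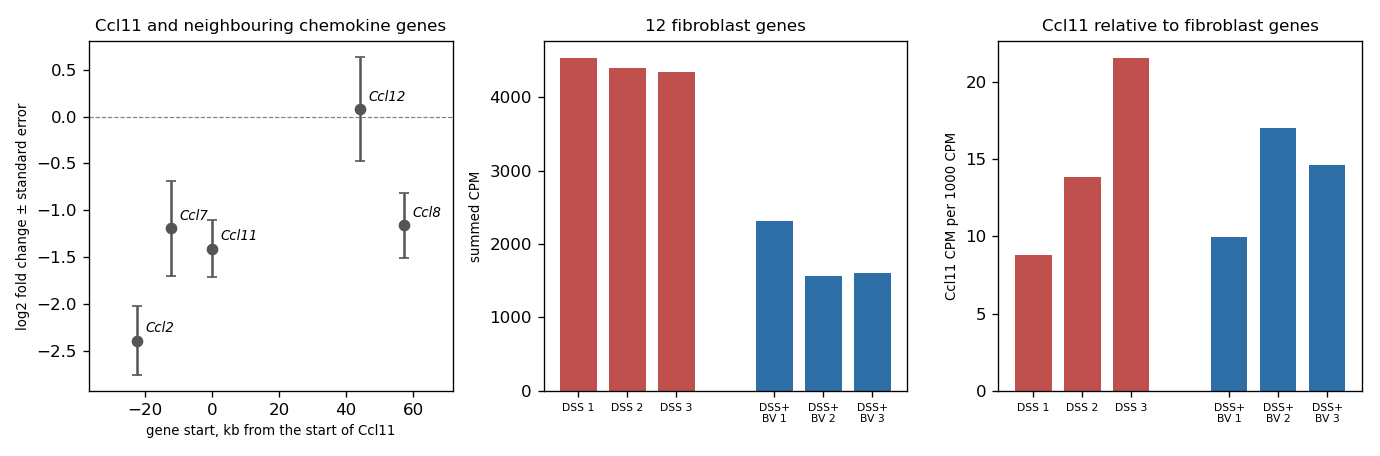
Fold changes along the chemokine cluster that holds Ccl11, by distance in kb from the start of Ccl11. The summed CPM of 12 fibroblast genes and the level of Ccl11 beside it are given for each mouse. Ccl2, Ccl7, Ccl11 and Ccl8 lay below 0 and Ccl12 at 0.08 on the log2 scale, and the DSS+BV mice sat at 1561 to 2313 CPM of fibroblast genes against 4342 to 4534 in DSS.

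Ccl24 (Entrez gene 56221, chromosome 5, 135569935 to 135573123), which encodes eotaxin-2, had counts of 2, 3 and 12 in DSS and 13, 4 and 3 in DSS+BV. The highest libraries, DSS mouse 3 and DSS+BV mouse 1, stood at nearly the same count, and 3 of the 6 libraries did not exceed 3 counts. Summed over each group this was 17 and 20 counts, and the level in DSS+BV was 1.26 times that in DSS, with a 95% interval of 0.627 to 2.56 that covers counting error only. The gene was removed by the filter. When every gene with a count was kept, its log2 fold change was 0.37 (standard error 0.886, edgeR adjusted p = 0.879). The log2 ratio of Ccl11 to Ccl24 (rounded counts, each with a prior count of 2 added) was 7.39, 7.62 and 6.85 in DSS and 4.55, 6.12 and 6.23 in DSS+BV. The ratio differed by -1.65 log2 units, DSS+BV against DSS (two-sided exact permutation test, p = 0.1, the smallest that the 20 arrangements of 3 against 3 allow), and the difference lay between -1.95 and -1.11 with 1 mouse left out. The Ccl24 side of this ratio rests on at most 13 counts per library.

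Ccr3 (Entrez gene 12771, chromosome 9, 124017825 to 124031692), the eotaxin receptor, had counts of 1, 47 and 28 in DSS and 8, 6 and 3 in DSS+BV. DSS mice 2 and 3 lay above every DSS+BV mouse, and DSS mouse 1 lay below them all. The levels were 0.0599, 2.92 and 1.63 CPM in DSS against 0.528, 0.382 and 0.190 CPM in DSS+BV. The summed counts were 76 and 17, a level in DSS+BV of 0.239 times that in DSS (95% interval 0.133 to 0.409, counting error only). The spread between DSS mice was much wider than counting error. Ccr3 was removed by the filter, and with every gene kept its log2 fold change was -2.03 (standard error 1.07, edgeR adjusted p = 0.519). DESeq2 gave -2.05 with an adjusted p of 0.420. Ccr3 and Ccl11 did not share an order among the DSS mice, since the mouse with 47 Ccr3 counts had 980 Ccl11 counts and the mouse with 28 had 1607.

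Il5 (Entrez gene 16191, chromosome 11, 53720794 to 53725103), the cytokine that drives eosinophil production, had counts of 1, 0 and 2 in DSS and 1, 0 and 0 in DSS+BV. No library exceeded 3 counts, so no fold is given and a difference was not detectable at this depth.

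Il5ra (Entrez gene 16192, chromosome 6, 106710375 to 106749037), the chain that binds IL-5, had counts of 401, 26 and 508 in DSS and 42, 16 and 11 in DSS+BV. DSS mice 1 and 3 stood far above the other 4 mice, and DSS mouse 2 lay below DSS+BV mouse 1, so the groups overlapped. The levels were 24.0, 1.62 and 29.6 CPM in DSS (18.4 ± 14.8, SD, n = 3) and 2.77, 1.02 and 0.695 CPM in DSS+BV (1.5 ± 1.12, SD, n = 3). The log2 fold change was -3.62 (standard error 1.07, 95% confidence interval -6.17 to -1.07), with an unadjusted p of 0.0125 and an adjusted p of 0.322 from edgeR's quasi-likelihood test. DESeq2 gave -3.60 with an adjusted p of 0.00468. With 1 mouse left out the log2 fold change ranged from -4.40 to -3.10, and edgeR's adjusted p from 0.107, without DSS mouse 2, to 0.903. DSS mouse 2, the lowest of its group for Il5ra, held the highest Ccr3 count.

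IL-5 receptors are also carried by mouse B cells and plasma cells, and 10 B cell genes and 7 plasma cell genes, chosen after the values had been seen, were set beside Il5ra. The summed B cell level was 210, 20.4 and 341 CPM in the DSS mice and 316, 10.2 and 13.3 CPM in the DSS+BV mice. It was thus high in DSS mice 1 and 3, where Il5ra was high, and also in DSS+BV mouse 1, where Il5ra was 2.77 CPM. Per 100 CPM of B cell genes, Il5ra was 11.4, 7.90 and 8.68 CPM in DSS against 0.876, 10 and 5.21 CPM in DSS+BV, and the groups overlapped. The summed plasma cell level was 772, 835 and 1713 CPM in DSS against 1201, 532 and 574 CPM in DSS+BV, a different order from that of Il5ra. The median log2 fold change was -0.76 over the B cell genes and -0.91 over the plasma cell genes, and edgeR called 0 of either list, with 0 and 1 below an unadjusted p of 0.05 and 0 called by DESeq2. The part of B cells in the Il5ra levels was not tested.

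**Figure D3:**
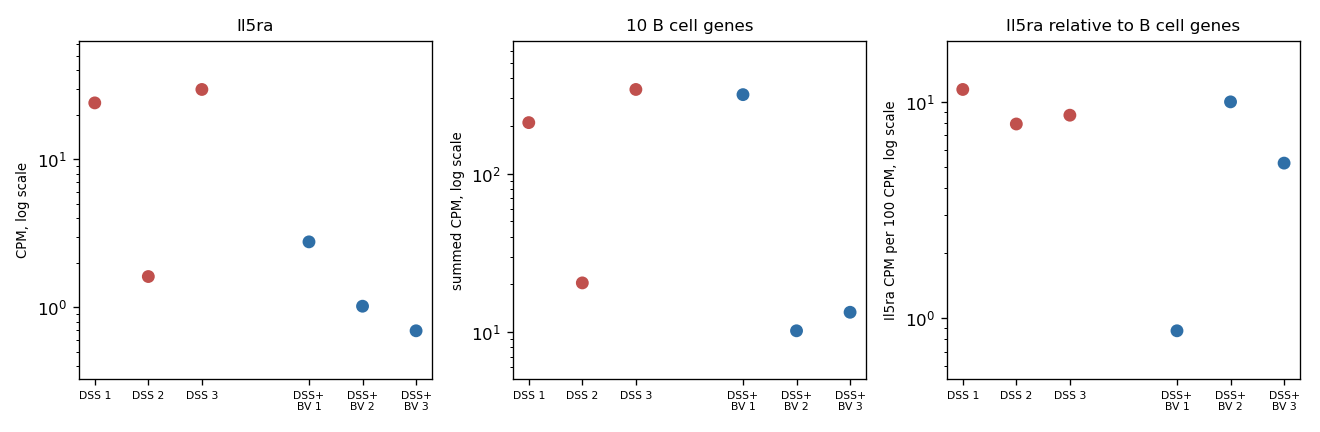
Il5ra CPM and the summed CPM of 10 B cell genes in each mouse, with levels on log axes. DSS mice 1 and 3 had 24.0 and 29.6 CPM of Il5ra, while DSS+BV mouse 1 had 316 CPM of B cell genes and 2.77 CPM of Il5ra.

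Epx (Entrez gene 13861, chromosome 11, 87863997 to 87875536), which encodes eosinophil peroxidase, had counts of 0, 0 and 0 in DSS and 0, 1 and 3 in DSS+BV. No library exceeded 3 counts, and no fold is given. For the 0 counts summed over the DSS libraries, the 95% interval reached up to 3.69 counts, counting error only. In a DSS library, 3 counts corresponded to 0.175 to 0.187 CPM.

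Prg2 (Entrez gene 19074, chromosome 2, 84980461 to 84983632), which encodes major basic protein, had counts of 9, 11 and 29 in DSS and 16, 6 and 7 in DSS+BV. DSS mouse 3 was the highest and DSS+BV mouse 1 came next, so the groups overlapped. The levels were 0.971 ± 0.626 CPM in DSS against 0.627 ± 0.372 CPM in DSS+BV (SD, n = 3 each), and the log2 fold change was -0.63 (standard error 0.634, 95% confidence interval -2.14 to 0.88, edgeR adjusted p = 0.703). Without DSS mouse 3 it was 0.03. Over 7 granule genes (Epx, Prg2, Prg3 and the ribonucleases Ear1, Ear2, Ear6 and Ear10) the summed counts were 12, 14 and 60 in DSS and 29, 21 and 18 in DSS+BV. Of these 7, Prg2 and Ear2 gave 12, 14 and 56 counts in DSS and 28, 18 and 15 in DSS+BV, and Ear2 alone 3, 3 and 27, and 12, 12 and 8. The Ear genes are near-identical copies of each other, so reads may be divided between them, and their separate counts are uncertain.

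Siglecf (Entrez gene 233186, chromosome 7, 43351341 to 43359475), an inhibitory receptor of eosinophils, had counts of 19, 48 and 52 in DSS and 22, 49 and 57 in DSS+BV. Replicate 1 of each group was low, and the remaining mice of both groups lay together. The levels were 2.38 ± 1.08 CPM in DSS against 2.73 ± 1.13 CPM in DSS+BV (SD, n = 3 each). The log2 fold change was 0.19 (standard error 0.511, 95% confidence interval -1.03 to 1.41, edgeR adjusted p = 0.898), and it was -0.14 without DSS mouse 1 and -0.05 without DSS+BV mouse 3. A difference of up to a log2 fold change of 1 in either direction is inside this interval. Siglec-F is also found on tuft cells, the chemosensory cells of the epithelium. Their defining factor Pou2f3 and the channel gene Trpm5 were named after their values had been seen. Pou2f3 stood at 0.299, 1.18 and 0.815 CPM in DSS against 0.528, 1.34 and 1.45 CPM in DSS+BV, also low in replicate 1 of each group. These levels rest on few counts, 5, 19 and 14 in DSS and 8, 21 and 23 in DSS+BV. The tuft cell channel gene Trpm5 stood at 1.32, 8.70 and 6.0 CPM in DSS against 5.94, 6.82 and 7.90 CPM in DSS+BV. Per CPM of Pou2f3, Siglecf was 3.35 ± 0.712 in DSS and 2.52 ± 0.211 in DSS+BV (SD, n = 3 each), and the groups overlapped. Over 8 tuft cell genes, a list chosen after the values had been seen, the summed level was 57.2, 70.8 and 102 CPM in DSS against 68.4, 53.1 and 50.8 CPM in DSS+BV, and the median log2 fold change of the 7 tested was -0.18. The genes of that list did not share a pattern. Within DSS+BV, mouse 1 was the lowest for Pou2f3, Trpm5, Gfi1b and Avil and the highest for Dclk1, Hpgds, Alox5ap and Il17rb. The part of tuft cells in the Siglecf level was not tested.

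The log2 ratio of Siglecf to Epx (rounded counts, each with a prior count of 2 added) was 3.39, 4.64 and 4.76 in DSS and 3.59, 4.09 and 3.56 in DSS+BV. The difference of -0.52 did not pass the two-sided exact permutation test (p = 0.4, smallest possible 0.1), and it ranged from -0.96 without DSS mouse 1 to -0.27 without DSS mouse 3. The Epx side rests on 4 counts over all libraries, none of them in DSS, so the size of the ratio is set by the prior count, and with a prior count of 0.5 the difference was -1.34 (two-sided exact permutation test, p = 0.2).

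Levels of the genes were compared with each other per kilobase of exon. In DSS the mean levels in CPM per kilobase were 59.9 for Ccl11, 5.15 for Il5ra, 1.16 for Prg2, 0.854 for Siglecf, 0.470 for Ccr3, 0.259 for Ccl24, 0.0383 for Il5 and 0 for Epx. In DSS+BV they were 22.5 for Ccl11, 0.977 for Siglecf, 0.748 for Prg2, 0.418 for Il5ra, 0.335 for Ccl24, 0.112 for Ccr3, 0.0309 for Epx and 0.0143 for Il5. Ccl11 stood above every other member in all 6 libraries. Below Ccl11, every pair of neighbours in the order had overlapping ranges over the mice, from Il5ra to Ccl24 in DSS and from Siglecf to Ccr3 in DSS+BV. Of all counts of the 8 genes, Ccl11 held between 60.6% and 87.9% per library.

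Among 22 other genes of eosinophil receptors, granules and effectors, 13 were tested. EdgeR called 0 of them, 5 were lower at an unadjusted p under 0.05, and DESeq2 called 1, Cd300lf. The median log2 fold change was -0.94 (all tested genes, -0.01), 11 of 13 were negative, and 4 of 13 (30.8%) lay lower without overlap, beside 11.3% of all tested genes. Prg3, Ear1, Ear6, Ear10, the prostaglandin receptor Ptgdr2 and the histamine receptor Hrh4 did not exceed 3 counts in any library. Cd300lf, an inhibitory receptor of myeloid cells, stood at 12.2, 9.95 and 16.4 CPM in DSS against 6.93, 2.61 and 3.41 CPM in DSS+BV, and its log2 fold change was -1.57 (standard error 0.416, edgeR adjusted p = 0.287, DESeq2 adjusted p = 0.0206). Il3ra, the IL-3 receptor chain, stood at 6.89, 4.73 and 9.67 CPM in DSS against 3.36, 3.38 and 3.16 CPM in DSS+BV. Pirb, an inhibitory receptor with near-identical relatives that makes its counts uncertain, stood at 63.7, 32.6 and 82.2 CPM in DSS against 34.0, 15.5 and 11.3 CPM in DSS+BV. In Il3ra each DSS+BV mouse lay below each DSS mouse, and in Pirb DSS+BV mouse 1 lay above DSS mouse 2. Cd300a, an inhibitory receptor, was at a log2 fold change of -1.29 (standard error 0.452). Csf2rb, the beta chain shared by the IL-3, IL-5 and GM-CSF receptors, had -0.82 (standard error 0.466), and it also has a near-identical copy. Several of these receptors are carried by macrophages and neutrophils too, so the list is not particular to eosinophils.

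Of 21 type 2 cytokine and alarmin genes in the table, 16 were tested, and edgeR called 0, with 5 lower at an unadjusted p under 0.05 and 2 called by DESeq2, Il33 and Chil3. The median log2 fold change was -0.52, and 13 of 16 were negative. Without overlap, 6 of 16 (37.5%) lay lower, beside 11.3% of all tested genes. Il4, Il13 and the tuft cell cytokine Il25 did not exceed 3 counts in any library, like Il5. Il33, an alarmin that activates innate lymphoid cells to make IL-5, stood at 50.1, 50.4 and 62.5 CPM in DSS against 15.5, 23.9 and 12 CPM in DSS+BV. Each DSS+BV mouse lay at 23.9 CPM or less and each DSS mouse at 50.1 CPM or more. The log2 fold change of Il33 was -1.67 (standard error 0.273, edgeR adjusted p = 0.144, DESeq2 adjusted p = 2.46e-05). Chil3, a chitinase-like protein made by macrophages and neutrophils and named an eosinophil chemoattractant, stood at 22.9, 8.64 and 33.1 CPM in DSS against 1.91, 0.765 and 1.2 CPM in DSS+BV. Its log2 fold change was -4.06 (standard error 0.603, edgeR adjusted p = 0.113, DESeq2 adjusted p = 7.85e-10). The receptor genes Il4ra, Crlf2 and Il13ra1 had log2 fold changes of -0.67, -0.96 and -0.23, with edgeR adjusted p-values of 0.329, 0.356 and 0.683.

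Of 22 other CC chemokine, receptor and adhesion genes, all 22 were tested. EdgeR called 0, with 9 lower and 1 higher at an unadjusted p under 0.05, and DESeq2 called 1, Ccl2. The median log2 fold change was -0.93, and 17 of 22 were negative. Without overlap, 7 of 22 (31.8%) lay lower, beside 11.3% of all tested genes. Beside Ccl2 and Ccl8, described above, the smallest p-values belonged to Ccl9, a myeloid chemokine, whose log2 fold change was -0.75 (standard error 0.176, edgeR adjusted p = 0.245), and Cxcl12, a stromal chemokine, with -0.75 (standard error 0.238, edgeR adjusted p = 0.336). Ccl6, a chemokine of myeloid cells and among the most abundant of the list, had 0.04 (standard error 0.292).

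**Figure D4:**
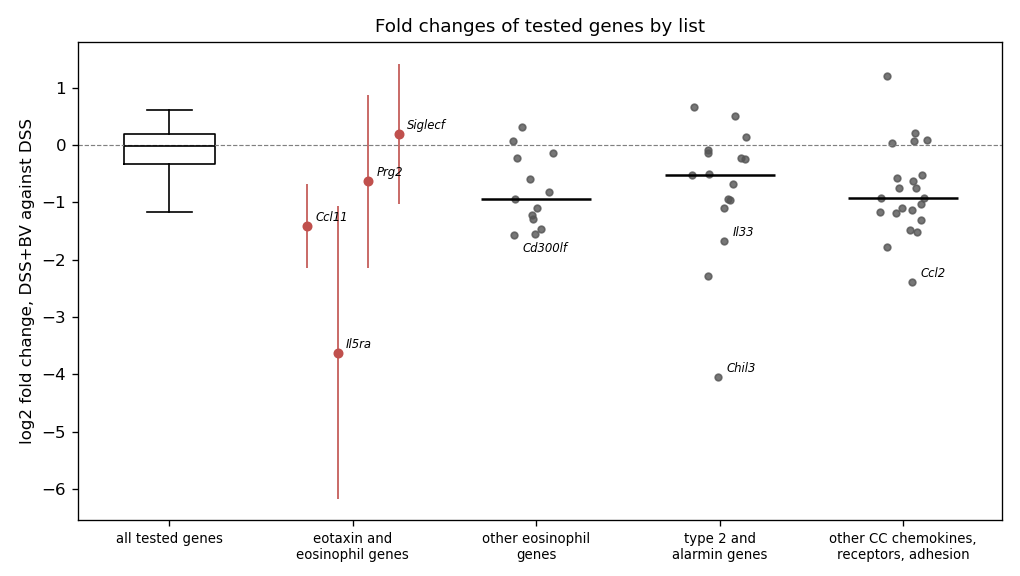
Log2 fold changes, DSS+BV against DSS, of all tested genes (box from the lower to the upper quartile, whiskers that leave out the outer 5% of genes on each side), of the 4 tested eotaxin and eosinophil genes with 95% confidence intervals, and of the genes of 3 pathway lists with a line at each median. The medians of the lists were -0.94, -0.52 and -0.93 beside -0.01 for all genes, and the intervals of Prg2 and Siglecf crossed 0.

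The genes outside the lists whose pattern over the 6 libraries lay closest to that of a tested member were found by the root mean square difference of centred log2 CPM. For Ccl11, whose own root mean square deviation was 0.75, they were Hpcal4, Nefm and Pgf, at 0.11, 0.13 and 0.13. For Il5ra (own deviation 2.05) they were Wfdc18, Trim10 and Lrg1, at 0.39, 0.50 and 0.58. Wfdc18 stood at 87.2, 4.60 and 108 CPM in DSS against 11.8, 5.86 and 4.99 CPM in DSS+BV, so it was high in DSS mice 1 and 3 as Il5ra was. For Prg2 (own deviation 0.64) they were Atcay, Tmem151b and Pamr1, at 0.12, 0.13 and 0.18. For Siglecf (own deviation 0.59) the closest included Cldn23 and Snurf, both at 0.13. Cldn23, a claudin gene, stood at 18.1, 34.2 and 35.6 CPM in DSS against 19.1, 38.0 and 41.9 CPM in DSS+BV, and was low in replicate 1 of each group.

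Marker lists of other cell types were read beside the 8 genes. Of 11 tested neutrophil genes, 6 were called lower by edgeR and 9 by DESeq2, and the median log2 fold change was -3.61. Without overlap, 8 lay lower, beside 11.3% of all tested genes. The 15 neutrophil genes of the table had a summed level of 280, 451 and 283 CPM in DSS against 309, 115 and 197 CPM in DSS+BV. Much of that sum was Cd177, the only tested gene of the list above 0, with a log2 fold change of 0.23 and CPM of 98.9, 308 and 74.1 in DSS against 282, 99.4 and 183 in DSS+BV. The 16 macrophage and monocyte genes were all negative with a median of -0.89, at summed levels of 1638, 1023 and 2305 CPM in DSS against 1553, 679 and 618 CPM in DSS+BV, and 0 were called by edgeR, with 4 below an unadjusted p of 0.05 and 3 called by DESeq2. The 12 epithelial genes were all positive with a median of 0.52, at 12900, 21710 and 16400 CPM in DSS against 22380, 35410 and 41700 CPM in DSS+BV. Much of that sum in DSS+BV mice 2 and 3 was Muc2, at 8265 and 20700 CPM, and Car1, at 10450 and 8702 CPM. The log2 fold changes of the 12 genes ran from 0.14 to 2.84, the latter for Car1. EdgeR called 0 of the 12, with 5 below an unadjusted p of 0.05 and 1 called by DESeq2. For 7 mast cell and basophil genes the median was -0.46, for 8 smooth muscle genes -0.11 and for 10 genes of T and innate lymphoid cells -0.26, and edgeR called 0 of each, with 1, 0 and 0 below an unadjusted p of 0.05 and 1, 0 and 0 called by DESeq2. The epithelial genes that define colon tissue were abundant, while of the defining eosinophil granule genes Epx was at or below 3 counts in every library and Prg2 between 6 and 29. The part of any of these cell types in the levels of the 8 genes was not tested.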

How the data were processed

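RNA of 6 mouse colons was sequenced, 1 library per mouse. The authors aligned and quantified the reads and deposited unscaled expected counts per gene from RSEM. The submitters' processing notes name HISAT2 2.1.0, Bowtie2 2.2.5, RSEM 1.2.8 and build GRCm38.p6. The table covers 18477 genes, and 1573 of them (8.51%) held a fractional value, which RSEM gives when a read is divided between genes or transcripts. None of the 8 genes did. Strand use in counting is not given in the sources used here. Groups came from the sample labels.

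Expected counts were rounded. Genes were kept with filterByExpr (minimum count 10, minimum total 15), libraries were scaled by TMM, and edgeR 4.0.16 (R 4.3.3) tested the groups by quasi-likelihood, without covariates, with Benjamini-Hochberg adjustment over 14579 genes and the thresholds of the study (biological coefficient of variation 32.1%, prior degrees of freedom 2.68). CPM are counts relative to the TMM-scaled totals, and gene coordinates and exon lengths came from reference annotation of the same build. The tests were first tried on simulated data.

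The members and lists were chosen with earlier results of these data known, and 3 of 13 lists besides the members (B cell, plasma cell, tuft cell) after the values had been seen. Named genes are the members, and of each pathway list the called genes, the 4 with the smallest p-values and the 2 with the highest mean CPM, plus the 3 closest patterns per tested member, of which 1 is not reported here. Trpm5, Pou2f3 and the other tuft cell genes, Pdgfra, Ear2, Il9r and the neighbours of Ccl11 were named after their values had been seen. Alternatives were DESeq2 1.42.0, other normalizations, filters and thresholds, a replicate block, and each library left out.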

Additional observations from a re-analysis of the deposited data

How the results depend on the processing

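The spread between mice limits Ccl11, Il5ra, Ccr3 and Prg2 more than depth does. Depth limits Il5 and Epx, and both bear on Ccl24. Over all genes edgeR called 13 lower and 0 higher. DESeq2 called 281 lower and 46 higher, of which 2 were among the 8 genes (0 with edgeR), 1 among the other eosinophil genes, 2 among the type 2 and alarmin genes and 1 among the other chemokine genes. When each library was left out, edgeR called 0 to 3 lower and 0 to 4 higher genes, 3 lower and 4 higher without DSS+BV mouse 1, and 0 of the members. The cause was not tested. The log2 fold changes of Prg2 ran from -1.22 to 0.032, with 0.032 without DSS mouse 3, and those of Siglecf from -0.14 to 0.50, with -0.14 without DSS mouse 1 and -0.05 without DSS+BV mouse 3. Under the other settings, Ccl11 lay between -1.47 and -1.33, Il5ra between -3.68 and -3.12, Prg2 between -0.69 and -0.59 and Siglecf between 0.14 and 0.22. The filter at more than 1 CPM removed Prg2.

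Mice share replicate numbers between the groups, and the labels do not say whether the numbers pair them. The deviations of same-numbered libraries correlated at 0.27, 0.26 and -0.30 over the tested genes. The highest correlations were between different numbers, 0.484 for DSS mouse 2 with DSS+BV mouse 3 and 0.37 for DSS mouse 3 with DSS+BV mouse 1. Only DSS mouse 1 and DSS+BV mouse 2 correlated best with their own number. With so few libraries per group, these correlations cannot decide whether same-numbered mice shared a batch. With a replicate block edgeR called 0 lower and 0 higher genes, Ccl11 was at -1.33 (adjusted p = 0.327) and Il5ra at -3.12 (adjusted p = 0.428). In pairs, the ratio of Ccl11 to Ccl24 differed by -1.65 (exact sign-flip permutation p = 0.25, the smallest possible) and that of Siglecf to Epx by -0.52 (exact sign-flip permutation p = 0.5).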

Other observations

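Il9r, the IL-9 receptor gene of the type 2 list, was chosen after its values had been seen, for its pattern beside Il5ra. It stood at 3.95, 0.56 and 5.42 CPM in DSS and 6.33, 0.255 and 0.316 CPM in DSS+BV, so that DSS+BV mouse 1, where Il5ra was 2.77 CPM, held the highest Il9r level of the 6 mice. Its log2 fold change was -0.53 (standard error 1.28, edgeR adjusted p = 0.891, DESeq2 adjusted p = 0.907). The libraries with high Il9r were those with high summed B cell genes (210, 341 and 316 CPM).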
